A study of Mus musculus with 10 samples.

Results

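Replication-dependent histone genes encode the linker histone H1 and the core histones H2A, H2B, H3 and H4 that package newly copied DNA. Their rows were taken from a table of gene counts by symbol, as the genes numbered in the H2ac, H2bc, H3c and H4c families together with H1f1 to H1f5. This gave 63 genes of the 24470 entries, 5 for H1, 17 for H2A, 17 for H2B, 12 for H3 and 12 for H4. The RNA came from 10 testes of 5 C57BL/6 mouse embryos at E12.5, called M1 to M5. Each gonad was cultured with its mesonephros for 48 h, 1 gonad of a pair in 75 µM CP 316819, a glycogen phosphorylase inhibitor (GPI), and its partner in vehicle (DMSO) alone. The mesonephros was dissected away before RNA was taken, so a library holds the RNA of all cell types of a whole testis. Libraries held from 10203679 to 15635322 counts.

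Histone proteins wrap DNA into nucleosomes, and a cell that copies its genome needs new histones at the same pace. The mRNAs of these genes therefore accumulate in S phase and are destroyed when DNA synthesis ends. Most end not in a poly(A) tail but in a short stem-loop, which is bound by the protein SLBP, and the genes lie without introns in dense clusters transcribed with the help of NPAT. In the fetal testis at this age, germ cells and somatic cells divide, and male germ cells leave the cell cycle soon afterwards.

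The stem-loop is shown because it marks this class of mRNA and decides how it is processed and how long it lasts. A search of GENCODE M21 transcripts (GRCm38) for 16 bases with a stem of 6 base pairs that starts with GG and a loop that starts with TTT found it in 40 of the 63 genes. Among genes without a match, the shortest transcript can be shorter than the counted gene, as in H2ac13 (393 and 448 bases). Their 3′ ends may not have been searched, so a missing match does not show that the stem-loop is absent. The members printed had the smallest p of their type among those with a stem-loop in the sequence, and capitals mark the stem-loop.
H1f4: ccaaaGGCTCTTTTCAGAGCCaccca
H2ac20: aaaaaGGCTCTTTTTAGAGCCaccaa
H2bc3: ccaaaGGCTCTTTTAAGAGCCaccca
H3c2: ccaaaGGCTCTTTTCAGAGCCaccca
H4c4: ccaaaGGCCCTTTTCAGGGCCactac
These lie at chr13:23621777-23621802 (minus strand), chr3:96220413-96220438 (minus strand), chr13:23747198-23747223 (plus strand), chr13:23752815-23752840 (plus strand) and chr13:23581945-23581970 (plus strand), each ending within 1 base of the 3′ end of the annotated gene. The stem began with GGCTCT in all 30 stem-loops found in H1, H2A, H2B and H3 genes and in 0 of the 10 found in H4 genes. The most common form, that of H1f4 and H3c2, occurred in 24 genes and the form of H4c4 in 6.

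Counts were scaled by edgeR's TMM factors, and a normalized count is a count put on the scale of the average effective library size of all 10. Summed over all 63 genes, normalized counts in M1 to M5 were 13363, 13252, 15656, 13526 and 11941 with vehicle and 8515, 9954, 10362, 9197 and 8796 with GPI. Every GPI library lay below every vehicle library. Within an embryo, the log2 ratio of GPI over vehicle for this sum was -0.65, -0.41, -0.60, -0.56 and -0.44 in M1 to M5. In RNA of a whole gonad, fewer cells of a kind and less RNA per cell cannot be told apart. The sum is a description and was given no test.

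**Figure D1:**
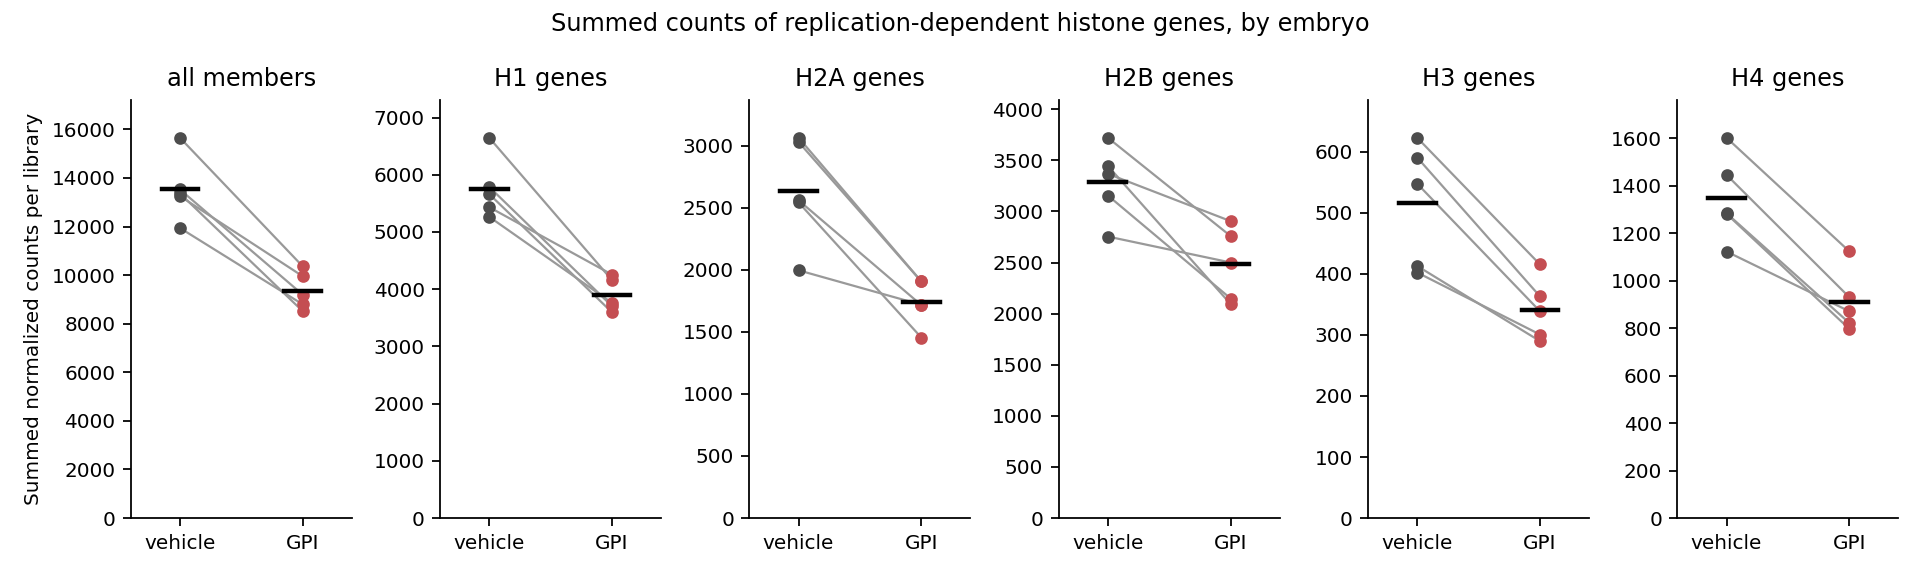
Summed normalized counts of all 63 members and of the genes of each histone type (y axis, from 0) in vehicle and GPI libraries (x axis), with a line joining the gonads of an embryo and a bar at the mean of 5. The lowest vehicle sum of all members was 11941 and the highest GPI sum 10362.

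Of the 63 genes, 45 passed the filter on low counts and were tested, and 18 did not. Each tested gene had a negative log2 fold change with GPI under TMM, DESeq2's size factors and total counts alone, but the sign of H2ac21 turned positive with limma-voom, without the embryo as a block, without embryo M4 and with a trend on GC content and length removed, the last of which also turned H4c12. With an embryo left out, H4c12 also turned positive without M1, M2 or M3, H3c4 without M2 and H2bc22 without M4. With no filter H3c14 and H3c15, not tested otherwise, were positive too. At an FDR of 0.05 over 13941 genes (Benjamini-Hochberg), the quasi-likelihood test of edgeR, source of every adjusted p given here, called 21 of the 45 lower with GPI (46.7%), where 11.9% of all tested genes were lower. None of the 45 was higher, where 11.1% of all tested genes were. At an unadjusted p under 0.05, 29 were lower and 0 higher, where 2375 and 2367 of all 13941 tested genes were. DESeq2 called 20 lower and 0 higher (12.3% and 10.6% of all genes), and limma-voom 21 and 0 (12.1% and 11.5%). The median log2 fold change was -0.55 over the 45 genes and 0.02 over all tested genes. In 28 of the 45 the value was lower with GPI in 5 of 5 embryos, as it was in 15.2% of all tested genes. In 14 all GPI libraries lay below all vehicle libraries, as in 9.05% of all tested genes.

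The number called lower varied more when an embryo was left out, which also leaves fewer pairs, than with the tool. It was 20 without the embryo as a block, where 11.5% of all tested genes were lower, and these 20 were among the 21. Leaving out an embryo gave 13 to 18, with 13 without M4, of which 12 were among the 21, and 14 without M3, all among them. Of all tested genes, 9.23% were lower without M4, 9.63% without M3 and up to 12.1% without another embryo. The median log2 fold change of the tested members was -0.57 to -0.62 in these fits. With the GC and length trend removed it was 15. The 21 genes called had a median of 302.3 normalized counts per library and a median log2 fold change of -0.60. The 24 genes not called had medians of 41.7 normalized counts and -0.53. Of the 45, 35 exceeded the count cutoff of the filter in all 5 GPI libraries and 19 of these were called. The other 10 passed with fewer GPI libraries, and H2ac8 and H3c1 among them were called.

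**Figure D2:**
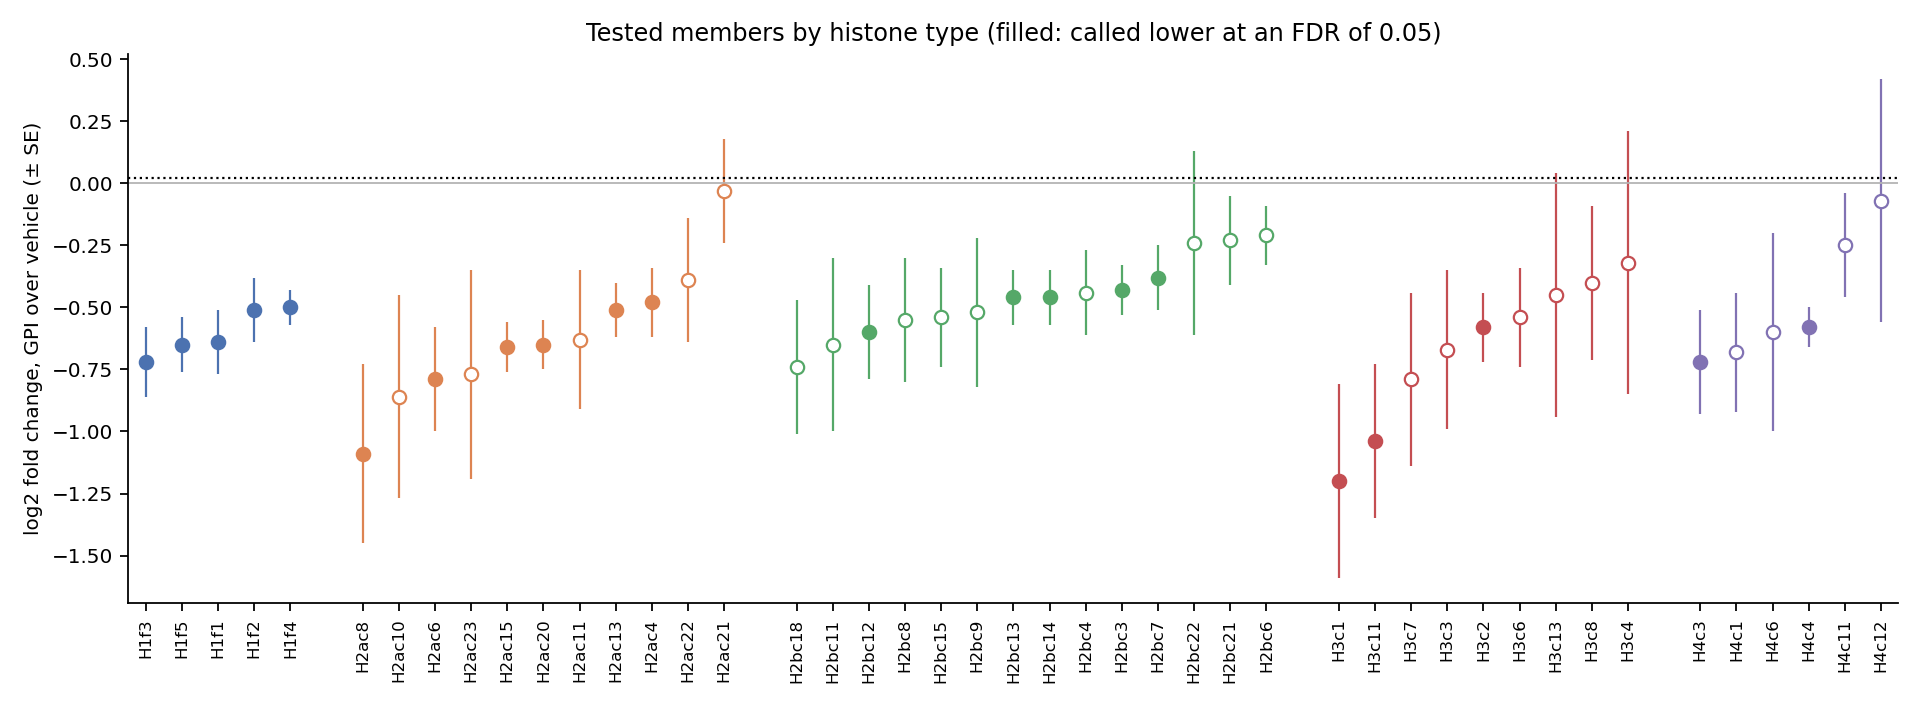
log2 fold change of GPI over vehicle (y axis) for the 45 tested members, grouped by histone type (x axis), with bars of 1 standard error (SE), filled points for the 21 genes called lower at an FDR of 0.05 and a dotted line at the median of all tested genes, 0.02. No point lies above 0, although H2ac21 (-0.03), H4c12 (-0.07), H3c4 (-0.32) and H2bc22 (-0.24) turned positive under some other settings, H2ac21 with limma-voom and no replicate block and each of the 4 with an embryo left out.

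The linker histones bind the DNA that enters and leaves a nucleosome, and all 5 were called lower. Gene positions are those of the count table (mm10). H1f4 (chr13:23621777-23622558) had 2683, 2730.2, 2931, 2825 and 2601 normalized counts with vehicle in M1 to M5 and 1878, 2104, 2138, 1873 and 1742 with GPI. The groups did not overlap, and the log2 fold change was -0.50 (SE 0.07, adjusted p = 0.000103). H1f5 (chr13:21779832-21780625) had 1839, 1496, 2286, 1829.8 and 1581 with vehicle and 888, 1308, 1253, 1185 and 1100.5 with GPI. All GPI libraries again lay lower, with M1 lowest, and the log2 fold change was -0.65 (SE 0.11, adjusted p = 0.000505). H1f3 had 169, 236, 241, 214 and 187 normalized counts with vehicle and 114, 150.0, 146, 103 and 122 with GPI, without overlap, and a log2 fold change of -0.72 (SE 0.14, adjusted p = 0.00145). H1f2 had 549, 483, 674, 511 and 519 with vehicle and 507, 366, 325, 299 and 449 with GPI. Here the groups overlapped, since the GPI library of M1 lay within the vehicle range. The log2 fold change of H1f2 was -0.51 (SE 0.13, adjusted p = 0.0128), and it was no longer called without M3 (-0.39) or without M4 (-0.44). H1f1, the remaining linker gene, had a log2 fold change of -0.64 (SE 0.13, adjusted p = 0.00196) and was lower in 5 of 5 embryos. The sum of the 5 genes had log2 ratios of -0.66, -0.35, -0.68, -0.64 and -0.49 in M1 to M5 (mean -0.56 ± 0.14, SD, n = 5). All 5 differ enough in sequence that every window as long as a read in their shortest transcripts occurred in no other GENCODE gene.

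H2A pairs with H2B to form the outer part of the nucleosome core. Of the 17 H2A genes 11 were tested, and 6 of these were called lower. H2ac20 (chr3:96220413-96220880) had 1150.5, 1365, 1309, 1158 and 813 normalized counts with vehicle and 722, 833, 746, 624 and 722 with GPI. Only the vehicle library of M5 lay below the highest GPI value, that of M2. Its log2 fold change was -0.65 (SE 0.10, adjusted p = 0.000351). H2ac15 (chr13:21753377-21753912) had 435, 585, 568, 446 and 372 with vehicle and 285, 342, 389, 245 and 266 with GPI, and a log2 fold change of -0.66 (SE 0.10, adjusted p = 0.000319). The GPI library of M3 reached above the vehicle library of M5, so the groups overlapped. H2ac13 had 399, 383, 443, 372 and 317 with vehicle and 288, 292, 259, 226 and 277 with GPI, without overlap, and a log2 fold change of -0.51 (SE 0.11, adjusted p = 0.00517). Only 14% of the read-length windows in the shortest GENCODE transcript of H2ac13 are found in no other gene, so its count is uncertain. The other genes called were H2ac4, H2ac6 and H2ac8, with log2 fold changes of -0.48, -0.79 and -1.09. None of these 3 was called without M2 (-0.45, -0.68 and -0.82), M3 (-0.43, -0.79 and -1.14) or M4 (-0.47, -0.68 and -1.02). H2ac8 was also not called without M5 (-1.24), and with the GC and length trend removed H2ac4 (-0.35) and H2ac8 (-1.03) were not. At the other end, H2ac21 had 105, 81.1, 104, 106 and 84.6 with vehicle and 94.0, 104, 128, 53.7 and 101 with GPI and a log2 fold change of -0.03 (SE 0.21, adjusted p = 0.949), lower in only 2 of 5 embryos; it is named here because of its value. The summed H2A counts had log2 ratios of -0.58, -0.67, -0.68, -0.81 and -0.22 in M1 to M5 (mean -0.59 ± 0.22, SD, n = 5), smallest in M5.

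Of the 17 H2B genes 14 were tested and 5 called lower. H2bc13 (chr13:21715713-21716143) had 524, 433, 480.2, 436 and 397 normalized counts with vehicle and 299, 336, 337, 379.8 and 298 with GPI. The groups did not overlap, and the log2 fold change was -0.46 (SE 0.11, adjusted p = 0.00682); with the GC and length trend removed it was -0.32 and not called. H2bc14 had 362, 297, 372, 370.5 and 345 with vehicle and 255, 256, 282, 278 and 206 with GPI, without overlap, and a log2 fold change of -0.46 (SE 0.11, adjusted p = 0.00869). H2bc3 had 361, 289, 389.7, 366 and 347 with vehicle and 264, 219, 312, 277 and 235 with GPI, and a log2 fold change of -0.43 (SE 0.10, adjusted p = 0.00788). Its groups overlapped through the GPI library of M3 and the vehicle library of M2. H2bc7 and H2bc12, with log2 fold changes of -0.38 and -0.60, were the remaining genes called. H2bc7 was not called when any embryo was left out (from -0.33 without M1 to -0.44 without M5), by DESeq2 (-0.39) or limma-voom (-0.37), without the block (-0.37), with no low-count filter (-0.39) or with the GC and length trend removed (-0.26). H2bc12 was not called without M1 (-0.38), M3 (-0.61), M4 (-0.64) or M5 (-0.62) or with that trend removed (-0.49). The 3 genes of this type with the most counts over all 10 libraries included 2 that were not called. H2bc21 had 495, 260.1, 496, 495 and 651 with vehicle and 358, 428, 400.3, 483 and 321 with GPI, with a log2 fold change of -0.23 (SE 0.18, adjusted p = 0.415). The vehicle library of M2 was the lowest of all 10, and without M2 the log2 fold change was -0.46 and called, while without M5 it was -0.03 and not called. H2bc4 had 399.7, 303, 437, 430.3 and 402 with vehicle and 174, 297, 348, 479 and 221 with GPI, with a log2 fold change of -0.44 (SE 0.17, adjusted p = 0.0837). It was higher with GPI in M4 and lower in the other embryos, and without M4 the log2 fold change was -0.60 and called, as it was by DESeq2 (-0.45) and with no low-count filter (-0.44). Without M1 it was -0.28 and without M5 -0.33, neither called. The summed H2B counts had log2 ratios of -0.72, -0.14, -0.43, -0.21 and -0.56 (mean -0.41 ± 0.24, SD, n = 5), and the groups overlapped.

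H3 and H4 form the centre of the nucleosome. Of the 12 H3 genes 9 were tested and 3 called lower. H3c2 (chr13:23752380-23752840) had 196, 239.8, 303, 223 and 137 normalized counts with vehicle and 129, 154, 194, 118 and 132 with GPI. The groups overlapped through the low vehicle library of M5, and the log2 fold change was -0.58 (SE 0.14, adjusted p = 0.0104); without M4 it was -0.49 and not called. H3c11 had 38.8, 69.2, 27.9, 41.8 and 36.6 with vehicle and 23.5, 21.9, 17.1, 17.9 and 20.7 with GPI, without overlap. Its log2 fold change was -1.04 (SE 0.31, adjusted p = 0.0251), and it was not called without M2 (-0.86), M4 (-0.99) or M5 (-1.09). H3c1 had 26.6, 20.3, 22.3, 23.9 and 22.9 with vehicle and 15.7, 9.73, 12.4, 7.36 and 6.54 with GPI, without overlap. At these low counts the log2 fold change of -1.20 (SE 0.39, adjusted p = 0.0388) was no longer called when any embryo was left out, with values from -1.33 to -1.06, nor by DESeq2 (-1.22), without a filter (-1.20) or with the GC and length trend removed (-1.09). Over all 10 libraries, H3c6 and H3c8 were the next in count after H3c2. They had log2 fold changes of -0.54 (SE 0.20, adjusted p = 0.0699) and -0.40 (SE 0.31, adjusted p = 0.406). H3c6 was called with total counts only (-0.59), while H3c8 was -0.25 without M5. The summed H3 counts had log2 ratios of -0.51, -0.70, -0.58, -0.69 and -0.42 (mean -0.58 ± 0.12, SD, n = 5), and the groups overlapped.

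Of the 12 H4 genes 6 were tested and 2 called lower. H4c4 (chr13:23581602-23581969) had 939, 1073, 1193, 991 and 872 normalized counts with vehicle and 603, 698, 864, 592 and 646 with GPI. The highest GPI value, that of M3, lay just below the lowest vehicle value, that of M5, and the log2 fold change was -0.58 (SE 0.08, adjusted p = 0.00016). H4c3 had 101, 128, 94.9, 60.8 and 71.6 with vehicle and 44.8, 60.0, 71.3, 41.0 and 55.6 with GPI. Its groups overlapped, and its log2 fold change of -0.72 (SE 0.21, adjusted p = 0.0227) was not called without M1 (-0.63) or M2 (-0.62). H4c1 had a log2 fold change of -0.68 (SE 0.24, adjusted p = 0.0568), just short of the threshold, and was called by limma-voom (-0.69), with total counts only (-0.73), with no low-count filter (-0.68), with at least 10 counts in every library (-0.68) and without M5 (-0.88). H4c11 had 86.4, 58.5, 100.5, 67.7 and 87.6 with vehicle and 82.8, 68.9, 59.9, 61.0 and 61.0 with GPI and a log2 fold change of -0.25 (SE 0.21, adjusted p = 0.437), which was -0.14 without M3. The summed H4 counts had log2 ratios of -0.64, -0.64, -0.51, -0.69 and -0.37 (mean -0.57 ± 0.13, SD, n = 5). H4c4 gave 1013 of the mean H4 sum of 1347 with vehicle. The groups of H4 sums overlapped too, while those of H1 and H2A did not.

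The tested genes differ widely in level. Per kb of annotated locus, mean normalized counts with vehicle were 3522 for H1f4, 2754 for H4c4, 2477 for H2ac20 and 2275 for H1f5, and 1054 for H2bc13, the next. The most abundant H3 gene on this scale, H3c2, reached 477. Genes with a locus over 1 kb were left out of this order, since their exon length was not used here. The 18 genes that were not tested all had counts in at least 1 library, with a highest mean of 15.4 normalized counts with vehicle. Together they had mean sums of 86.6 with vehicle and 61.6 with GPI.

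Histone genes of a type are near copies of each other, which bears on how well a count can be assigned. Windows as long as a read were taken from the shortest GENCODE M21 transcript of each gene, to just past the stem-loop where 1 was found. In 27 of the 63 genes, under 50% of these windows were found in no other gene. Some of these transcripts are shorter than the counted gene, as in H2ac13 (393 and 448 bases), and bases outside them were not compared. Of these 27 genes 14 were tested, and 4 of the 14 were called lower: H2ac13, H2bc12, H3c2 and H3c11. Of the 31 tested genes with at least 50% of windows found in no other gene, 17 were called lower. The counts of the first set are uncertain, because reads that fit several copies may not have been counted.

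The genes lie in 3 stretches of the genome. On chromosome 13, 23 genes lie between 21715713 and 22043658 and 30 between 23531044 and 23934913, and on chromosome 3 the other 10 lie between 96219916 and 96270192. Of the 15, 25 and 5 genes tested in these stretches, 7, 13 and 1 were called lower. Their median log2 fold changes were -0.54, -0.58 and -0.45. The summed counts of the chromosome 3 genes had log2 ratios of -0.55, -0.36, -0.56, -0.60 and -0.42 in M1 to M5, beside -0.83, -0.33, -0.72, -0.55 and -0.46 and -0.58, -0.47, -0.53, -0.55 and -0.43 for the chromosome 13 stretches in the order above. In each stretch the summed counts of all GPI libraries lay below those of all vehicle libraries. Of the mean chromosome 3 sum of 1848 with vehicle, H2ac20 gave 1159 and H2bc21 479.5. The groups of each of the 5 genes tested on chromosome 3 overlapped.

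Because 21 of the tested genes were called lower and none higher, the bases around the starts of some are shown. RefSeq (GRCm38.p6) gives 58 of the 63 genes a promoter window of 250 bases before to 50 after the start. For each type the member with the smallest p among those with a window is printed, with capitals on every match to TATAAA (the core of the TATA box), to CCAAT or to the octamer ATTTGCAT on either strand.
H1f4: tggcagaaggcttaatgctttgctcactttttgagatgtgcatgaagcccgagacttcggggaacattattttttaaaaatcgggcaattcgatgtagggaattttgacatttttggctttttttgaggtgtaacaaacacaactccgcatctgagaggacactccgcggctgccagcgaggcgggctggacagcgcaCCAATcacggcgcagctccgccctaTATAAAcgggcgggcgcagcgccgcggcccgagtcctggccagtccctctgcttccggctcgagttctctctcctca
H2ac15: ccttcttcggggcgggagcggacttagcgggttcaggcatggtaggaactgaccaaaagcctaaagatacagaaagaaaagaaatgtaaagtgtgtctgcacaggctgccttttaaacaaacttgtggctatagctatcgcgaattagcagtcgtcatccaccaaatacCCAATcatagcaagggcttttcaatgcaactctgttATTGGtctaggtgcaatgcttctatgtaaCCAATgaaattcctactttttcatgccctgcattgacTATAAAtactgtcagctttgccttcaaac
H2bc13: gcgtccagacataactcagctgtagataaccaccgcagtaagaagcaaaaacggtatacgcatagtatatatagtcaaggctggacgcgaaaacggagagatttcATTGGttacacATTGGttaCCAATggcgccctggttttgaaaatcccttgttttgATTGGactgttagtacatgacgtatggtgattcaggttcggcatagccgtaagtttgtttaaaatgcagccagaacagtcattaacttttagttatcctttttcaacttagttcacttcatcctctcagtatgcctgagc
H3c2: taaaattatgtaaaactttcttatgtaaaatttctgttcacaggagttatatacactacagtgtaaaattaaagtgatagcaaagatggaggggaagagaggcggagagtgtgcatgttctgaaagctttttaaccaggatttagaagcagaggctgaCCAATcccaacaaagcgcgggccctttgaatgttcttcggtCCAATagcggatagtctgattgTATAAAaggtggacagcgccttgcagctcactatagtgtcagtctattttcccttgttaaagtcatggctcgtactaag
H4c4: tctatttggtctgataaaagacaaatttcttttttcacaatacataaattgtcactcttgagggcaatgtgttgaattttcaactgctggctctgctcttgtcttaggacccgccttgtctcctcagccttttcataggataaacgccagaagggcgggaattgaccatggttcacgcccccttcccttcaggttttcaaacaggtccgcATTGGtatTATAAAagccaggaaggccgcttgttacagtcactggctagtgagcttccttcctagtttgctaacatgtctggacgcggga
The windows are chr13:23622509-23622808, chr13:21753863-21754162 and chr13:21716134-21716433 on the minus strand, and chr13:23752095-23752394 and chr13:23581318-23581617 on the plus strand. TATAAA began 27 bases before the start in H1f4, 29 in H3c2 and 32 in H4c4. In H2ac15 the match lay after the start, and H2bc13 had none. Searched on both strands, TATAAA was in 58.6% of the 58 windows and in 13.6% of all 32851 promoter windows of this length. CCAAT was in 86.2% and 37.4%. It was in every H1, H2A, H2B and H3 window and in 3 of 11 H4 windows. ATTTGCAT, which POU2F1 binds, was in 22.4% and 1.74%, and among members in 6 of 17 H2A and 7 of 15 H2B windows and no others. Of the 25 tested genes with TATAAA 15 were called lower, and of the 16 tested genes with a window and no TATAAA 5 were, where 11.9% of all tested genes were lower. Whether these sets differ was not tested. These matches describe letters in the windows, and binding was not measured.

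H2A and H2B genes often lie head to head and share the bases between them. There were 12 such pairs, with 167 to 305 bases between the genes, and both genes were tested in 7. In H2ac13 and H2bc13 both genes were called lower, with log2 fold changes of -0.51 and -0.46. In 4 pairs the H2A gene alone was called. These were H2ac20 (-0.65) with H2bc21 (-0.23), H2ac6 (-0.79) with H2bc4 (-0.44), H2ac8 (-1.09) with H2bc8 (-0.55), and H2ac15 (-0.66) with H2bc15 (-0.54), each value a log2 fold change. Without M2, M3 or M4 neither H2ac6 nor H2ac8 was called, while H2bc4 was called without M4 and H2bc21 without M2. H2bc8 was -0.35 without M2, and H2bc15 -0.35 without M3. In the other 2 pairs neither was called. The difference within a pair was not tested.

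**Figure D3:**
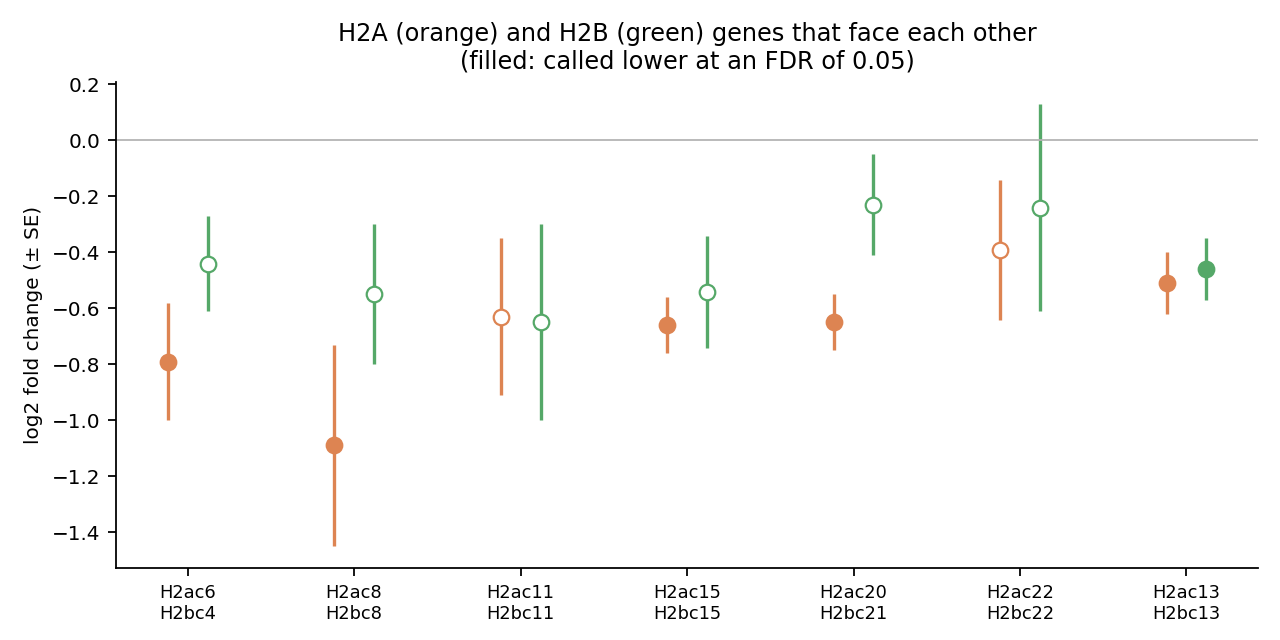
log2 fold change of GPI over vehicle with bars of 1 SE (y axis) for the 7 H2A and H2B pairs that face each other and were both tested (x axis), filled where called lower at an FDR of 0.05. The H2A point lies lower in 6 of the 7 pairs, as with H2ac20 (-0.65) and H2bc21 (-0.23).

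Some H2B genes have a longer annotated locus than the usual compact gene. The locus exceeded 1 kb in 6 genes, all H2B, and the 4 of these that were tested, H2bc4, H2bc6, H2bc21 and H2bc22, were not called and had a median log2 fold change of -0.24. H2bc6, named after its values were seen, had 357, 301, 451, 416 and 296 normalized counts with vehicle and 247, 340.5, 359, 387 and 244 with GPI, overlapping, and a log2 fold change of -0.21 (SE 0.12, adjusted p = 0.231). The 41 tested genes with a locus of at most 1 kb had a median of -0.58, and 21 were called. The split by locus length was chosen after the values were seen, and whether the sets differ was not tested. For comparison, 50 other protein-coding genes with a locus of at most 1 kb were tested, of which 4 were lower and 8 higher, with a median log2 fold change of 0.16.

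Factors that serve histone genes came next. In the list of 20 factors of histone gene transcription and 3′ processing, 19 were tested, 1 was lower and 2 were higher, and the median log2 fold change was -0.06. Npat, the coactivator of histone genes, had 1753, 1966, 1851, 1625 and 1423 normalized counts with vehicle and 1956, 1857, 1885, 1709.7 and 1988 with GPI, overlapping, and a log2 fold change of 0.13 (SE 0.08, adjusted p = 0.31), or 0.04 without M5. Slbp, which binds the stem-loop, had 1137, 1169, 1106, 1185 and 962 with vehicle and 938, 1086, 1048, 1012 and 934 with GPI. The ranges overlapped, although the value was lower in 5 of 5 embryos, and the log2 fold change was -0.15 (SE 0.08, adjusted p = 0.199). Casp8ap2, needed for processing at the histone locus body, had a log2 fold change of 0.06 (SE 0.07, adjusted p = 0.631), or 0.01 without M2. Lsm10, a subunit of the U7 particle that cleaves histone pre-mRNA, had 42.1, 19.1, 22.3, 29.9 and 43.4 with vehicle and 48.1, 59.2, 56.1, 83.1 and 68.6 with GPI, without overlap and higher with GPI. Its log2 fold change was 1.04 (SE 0.28, adjusted p = 0.0158), and it was not called without M2 (0.90), M3 (0.95) or M4 (0.92). Cpsf2, a subunit of the cleavage complex, rose by 0.32 (SE 0.08, adjusted p = 0.0136) on the log2 scale and was not called without M3 (0.26) or M5 (0.29). Pou2f1, which binds the octamer, had a log2 fold change of -0.28 (SE 0.08, adjusted p = 0.0175), and without M4 it was -0.29 and not called.

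Histone chaperones and importers carry new histones to chromatin. All 20 of the list were tested, 1 was lower and 1 higher, and the median log2 fold change was 0.02. Nasp, a carrier of H3 and H4 in the soluble pool, had 6612, 5441, 5919, 7063 and 6241 normalized counts with vehicle and 5841, 7025, 5932, 7069 and 6644 with GPI, overlapping, and a log2 fold change of 0.06 (SE 0.08, adjusted p = 0.666). Chaf1a, of the assembly factor CAF-1, and Asf1b, which hands H3 and H4 to it, had log2 fold changes of -0.24 (SE 0.12, adjusted p = 0.175) and -0.03 (SE 0.24, adjusted p = 0.953). Chaf1a was -0.37 without M3 and -0.13 with the GC and length trend removed. Asf1a, the paralog of Asf1b, had 628, 619, 649.9, 579.7 and 592 with vehicle and 800.2, 729.6, 859.6, 776 and 749.7 with GPI, without overlap and higher with GPI, a log2 fold change of 0.35 (SE 0.08, adjusted p = 0.00611). Mms22l, which acts at stalled forks, had 554, 463, 567, 488 and 541 with vehicle and 341, 425, 358, 405 and 450.0 with GPI, without overlap and lower with GPI. Its log2 fold change was -0.40 (SE 0.11, adjusted p = 0.0162), and without M3 it was -0.35 and not called. Nap1l4, a carrier of H2A and H2B, had a log2 fold change of -0.23 (SE 0.09, adjusted p = 0.0989), without overlap and lower in 5 of 5 embryos, and was called with total counts only (-0.28). Both lists together had 5 genes called of 39, where 22.9% of all tested genes were called in either direction, and they had 2 called without M3 and 3 without M4.

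Replacement histones are made outside S phase too, from polyadenylated mRNA. All 11 genes of the list were tested, 0 were lower by edgeR and 2 were higher, and the median log2 fold change was 0.04. At an unadjusted p under 0.05, 2 were lower and 3 higher. DESeq2 called 1 lower and 0 higher, and limma-voom 0 lower and 2 higher. H2az1, which encodes H2A.Z, had 6912, 4189.6, 7559.8, 7489.6 and 7028 normalized counts with vehicle and 6940.3, 9443, 10114, 8742 and 7729 with GPI. The vehicle library of M2 was by far the lowest, and the log2 fold change of 0.39 (SE 0.13, adjusted p = 0.0446) became 0.20 and was not called without M2; it was not called without M3 (0.36), M4 (0.43) or M5 (0.45) or without the embryo as a block (0.37), by DESeq2 (0.38) or with total counts only (0.34). H3f3a, which encodes H3.3, had a log2 fold change of 0.20 (SE 0.07, adjusted p = 0.0451) and lost its call when any embryo was left out, with values from 0.16 to 0.20, and without the block (0.20). It was also not called by DESeq2 (0.19), with no low-count filter (0.20) or a stricter one (0.19), or when scaled by total counts (0.15) or as in DESeq2 (0.19). H3f3b, the other H3.3 gene, had 10295, 8868, 10676, 11852 and 11497 with vehicle and 10869.9, 12180.2, 10519.6, 12971 and 10741 with GPI and a log2 fold change of 0.11 (SE 0.08, adjusted p = 0.371), or 0.02 without M2. H1f0, a linker histone of resting cells, had 3841, 3984, 4369.5, 3952 and 4278 with vehicle and 3564, 3524, 3055, 3761 and 3799.5 with GPI. All its GPI libraries lay below all vehicle libraries, and its log2 fold change was -0.21 (SE 0.08, adjusted p = 0.0637). It was called lower by DESeq2 (-0.22), without the block (-0.21), with total counts (-0.26) and without M1 (-0.25). The summed counts of the list had log2 ratios of 0.02, 0.43, 0.07, 0.13 and 0.004 in M1 to M5, where those of the replication-dependent genes were -0.65, -0.41, -0.60, -0.56 and -0.44. None of the 4 germline linker histones passed the filter; their summed normalized counts were 18.8, 9.55, 27.9, 11.0 and 13.0 with vehicle and 10.1, 11.4, 7.61, 3.16 and 4.36 with GPI.

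Since these mRNAs are made in S phase, the genes of DNA replication are the nearest comparison. All 45 S-phase genes of the list were tested, and edgeR called 0 lower and 0 higher, with a median log2 fold change of -0.06. This median was 0.003 without M1, -0.03 without M3 and -0.11 with total counts only. At an unadjusted p under 0.05, 4 of the genes were lower and 5 higher. DESeq2 called 1 lower, Lig1, and 0 higher, and limma-voom 0 and 0. Without M2 and also with total counts only, 3 were called lower, Lig1 and, chosen after their values were seen, Dnmt1 and Prim1. Dnmt1 was also called lower without the block, and without M5 Orc1 was called higher (0.38). Pcna, the sliding clamp of DNA polymerase, had 1001, 1107, 1182, 1255 and 1026 normalized counts with vehicle and 889, 1063, 1040.3, 1072 and 1126 with GPI. The ranges overlapped, and the log2 fold change was -0.10 (SE 0.08, adjusted p = 0.417), or -0.16 without M5. Mcm2, of the replicative helicase, and Rrm2, of ribonucleotide reductase, had log2 fold changes of 0.14 (SE 0.12, adjusted p = 0.462) and 0.11 (SE 0.10, adjusted p = 0.493). Mcm2 ran from 0.02 without M1 to 0.25 without M2, and Rrm2 from 0.01 without M2 to 0.17 without M1. The smallest p values were those of Orc1, Lig1 and Rfc4, which load the helicase, join DNA and load the clamp. Their log2 fold changes were 0.32 (SE 0.11, adjusted p = 0.0553), -0.21 (SE 0.08, adjusted p = 0.0614) and 0.30 (SE 0.11, adjusted p = 0.0628). Orc1 was also called without the block (0.33), Orc1 (0.34) and Rfc4 (0.32) with the GC and length trend removed, and Lig1 with total counts only (-0.27). The summed counts of the list were 30246, 28925, 30378, 31287 and 28652 with vehicle and 26590.5, 30919.9, 28432, 28604 and 30359 with GPI, with log2 ratios of -0.19, 0.10, -0.10, -0.13 and 0.08 in M1 to M5. In each of the 5 embryos the log2 ratio of the replication-dependent histone sum was below that of the S-phase sum.

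**Figure D4:**
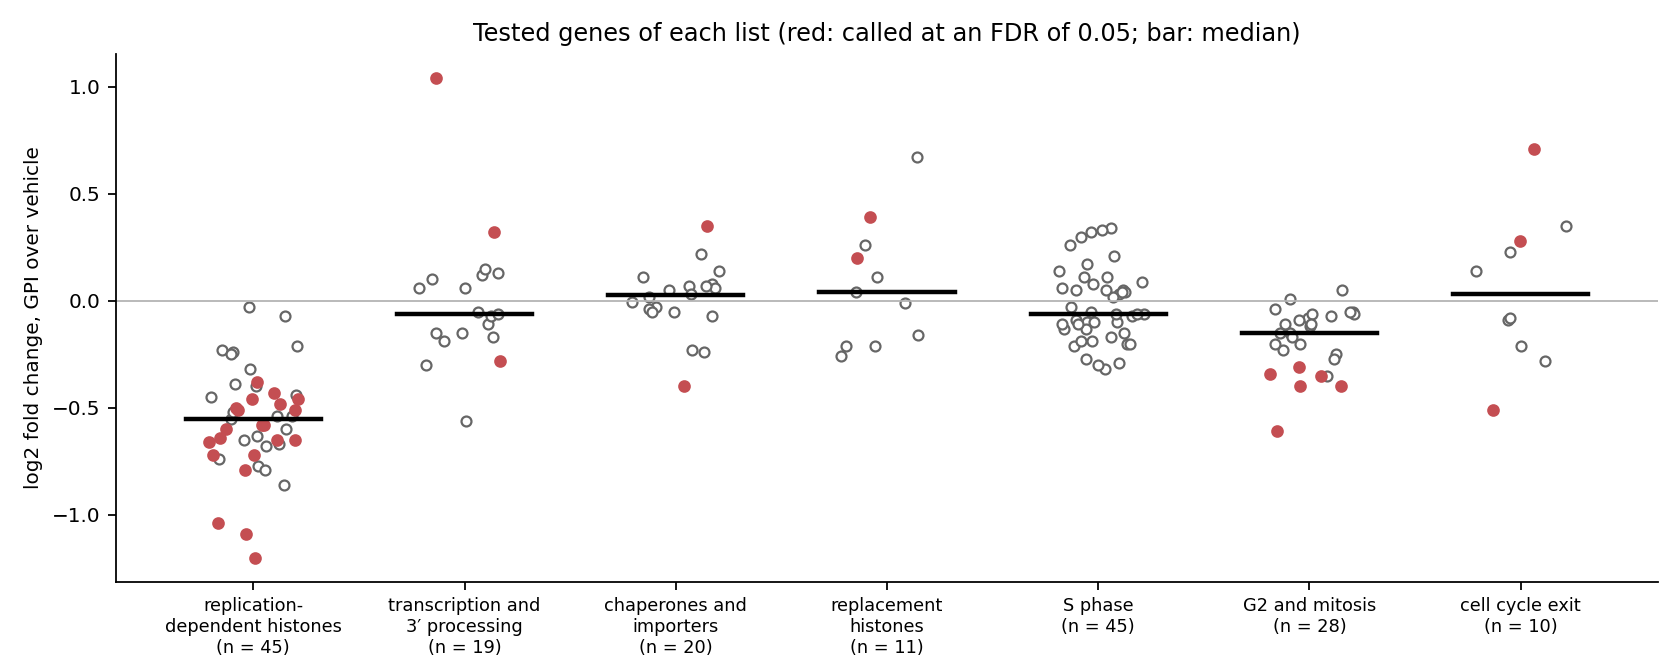
log2 fold change of GPI over vehicle (y axis) for the tested genes of each list (x axis, n below each name), red where called at an FDR of 0.05, with a bar at the list's median. The bar is at -0.55 for the replication-dependent histone genes, -0.06 for S-phase genes and -0.15 for genes of G2 and mitosis.

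Of 28 genes of G2 and mitosis, all tested, 6 were lower and 0 higher, with a median log2 fold change of -0.15. At an unadjusted p under 0.05, 11 were lower and 0 higher, and DESeq2 and limma-voom each called 6 lower and 0 higher. Without M3, 3 were called lower. Mki67, a marker of dividing cells, had 38222, 39885, 38188, 35502 and 32589 normalized counts with vehicle and 24024, 31885, 28784, 26275 and 29414 with GPI. The groups did not overlap, and the log2 fold change was -0.40 (SE 0.07, adjusted p = 0.00142). Top2a, a topoisomerase, and Ccnb1, a cyclin of mitosis, had log2 fold changes of -0.11 (SE 0.08, adjusted p = 0.364) and -0.27 (SE 0.11, adjusted p = 0.104), and Top2a was -0.20 without M5. Anln, of the cleavage furrow, and Ttk, a kinase of the spindle checkpoint, had log2 fold changes of -0.34 (SE 0.08, adjusted p = 0.00923) and -0.40 (SE 0.11, adjusted p = 0.0169), and Ttk was not called without M2 (-0.36) or M3 (-0.37). The summed counts of the list had log2 ratios of -0.50, -0.14, -0.29, -0.22 and 0.01 in M1 to M5, so that M5 did not share the direction of the other embryos.

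In the list of 12 genes of cell cycle exit, 10 were tested, 1 was lower and 2 were higher, with a median log2 fold change of 0.03. Cdkn1c, an inhibitor of cyclin-dependent kinases, had 570.3, 388, 339.5, 359 and 283 normalized counts with vehicle and 789, 596, 514, 574 and 654 with GPI. It was higher with GPI in 5 of 5 embryos, although the vehicle library of M1 reached the GPI range, and its log2 fold change was 0.71 (SE 0.11, adjusted p = 0.000376). Cdkn1a and Cdkn1b, of the same family, had log2 fold changes of -0.28 (SE 0.17, adjusted p = 0.26) and -0.09 (SE 0.09, adjusted p = 0.559), and without M1 that of Cdkn1a was -0.48 and called. It was not called without M5 (-0.07) or without the block (-0.18). Cdkn1b ran from -0.03 without M5 to -0.15 without M1. Btg1, which restrains division, had 1412, 1299.5, 1407, 1358 and 1335 with vehicle and 908, 1019.9, 923, 1032 and 908 with GPI, without overlap and lower with GPI, a log2 fold change of -0.51 (SE 0.08, adjusted p = 0.000289). Rbl2, a relative of the retinoblastoma protein, had a log2 fold change of 0.28 (SE 0.09, adjusted p = 0.0426) and was not called without M2 (0.21), M3 (0.27), M4 (0.27) or M5 (0.32) or with total counts only (0.23).

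Markers of several cell types moved with the treatment in the same libraries, and their part in the histone result was not tested. Of 12 endothelial markers all 12 were lower, with summed normalized counts of 10268, 10445, 10094, 11421 and 10526 with vehicle and 1266, 1501, 996, 787 and 927 with GPI, and Cdh5 (-3.63) was the most abundant and Pecam1 (-4.16) the other named. Of 12 germ cell markers 8 were tested and 6 lower, with sums of 1267, 2493, 1529, 2057 and 847 with vehicle and 314, 306, 227, 136 and 259 with GPI, Dazl (-4.62) the most abundant and Ddx4 at -2.72. Neither list overlapped between treatments. Of 10 macrophage markers 9 were tested and 8 lower, with sums of 1001, 649, 758, 764 and 765 and 384, 344, 313, 178 and 214, Ptprc (-1.85) the most abundant and Csf1r at -2.22. Of 12 erythroid markers 10 were tested and 8 lower, with sums of 2129, 2821, 5315, 4962 and 4232 and 1893, 1042, 974, 1105 and 2544, Hbb-y (-0.98) the most abundant and Alas2 at -0.75. These values in brackets or after a name are log2 fold changes, and each was called lower. Here and in the next paragraph, the most abundant marker is the one with the highest mean with vehicle. With GPI, Kdr, Sycp3, Mrc1 and Cyp11a1 had higher means than Cdh5, Dazl, Ptprc and Hsd3b1, respectively.

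Markers of the other cell types were higher, mixed or not called. Of 12 Sertoli cell markers, all tested, 9 were higher and 0 lower, with sums of 5692, 9070.1, 6948, 7909.9 and 8602 with vehicle and 7639.8, 11556, 11918, 14192 and 11915 with GPI. Gata4 was the most abundant, with a log2 fold change of 0.53, Sox9 had 0.59 and Amh, which was not called, 0.08. Of 8 fetal Leydig cell markers 7 were tested and all 7 were higher, with sums of 1984, 3617, 4977, 2793 and 6423 and 11676, 12187, 18295, 20890.4 and 15427, Hsd3b1 the most abundant (1.75), and Cyp17a1 at 3.90 and Cyp11a1 at 2.90. Of 7 interstitial cell markers, all tested, 3 were lower and 1 higher, with sums of 15511, 16905, 17736, 15071 and 17364 and 16243, 17998, 16302, 15389 and 18514, Pdgfra (0.33) the most abundant and Nr2f2, not called except with total counts only (-0.23), at -0.18. Of 7 markers of mesonephros and coelomic epithelium 3 were tested and 0 were called, with sums of 1053, 650.3, 797, 516 and 466 and 800.2, 717, 672, 582 and 625, and Upk3b the most abundant (0.23). No marker of the 8 lists was at 0 in all 10 libraries, and Sertoli and Leydig cell markers of the testis were present in each.

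**Figure D5:**
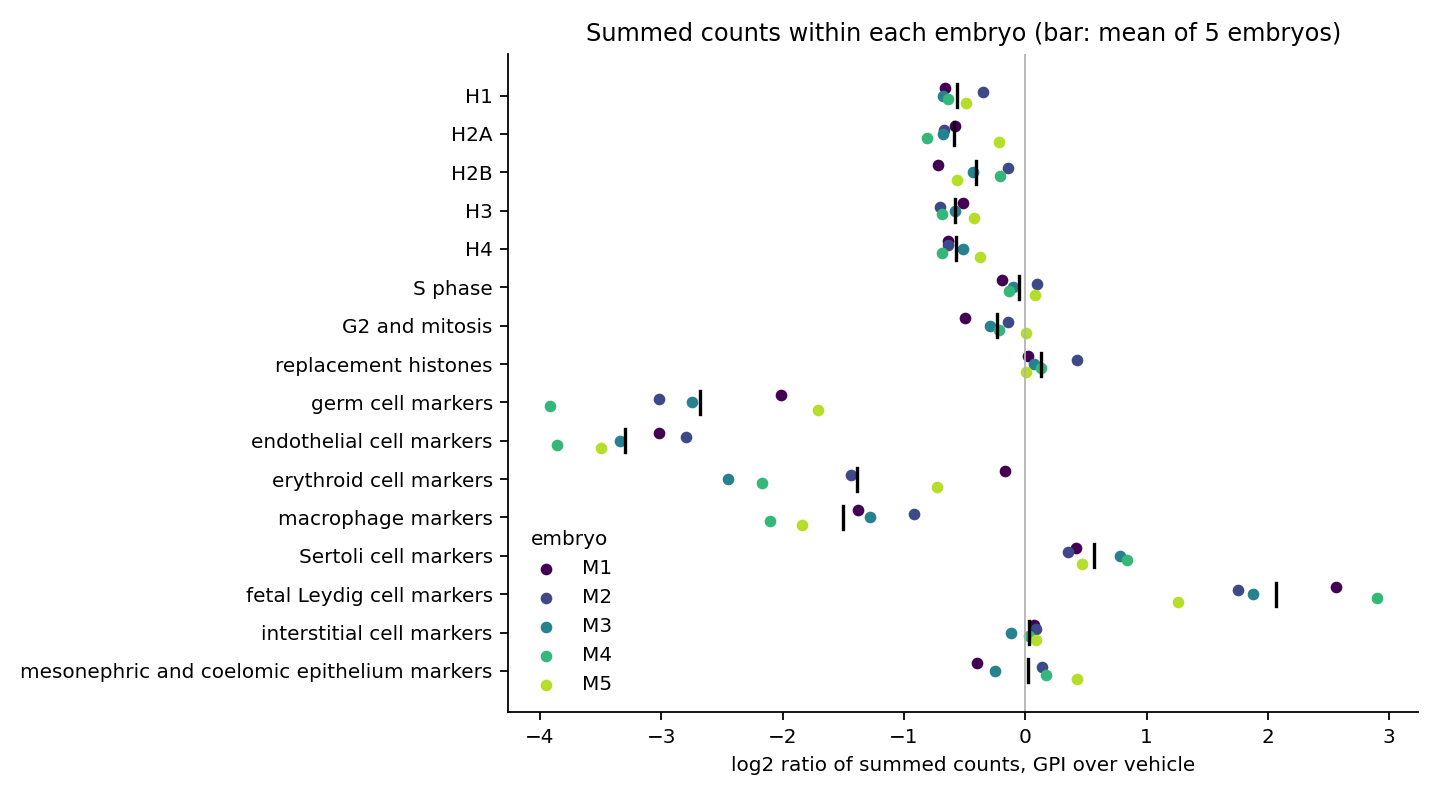
log2 ratio of summed normalized counts, GPI over vehicle, within each of 5 embryos (x axis; colour marks the embryo, bar the mean) for the histone types, 3 gene lists and 8 lists of cell type markers (y axis). All 25 points of the histone types lie below 0, between -0.81 and -0.14, while the S-phase points lie between -0.19 and 0.10.

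Reads from RNA without a poly(A) tail can vary with how a library was made, so a few such RNAs were read in the same libraries, chosen after the data were seen. Rn7sk, the 7SK RNA, had 14694, 23413, 15232, 10851 and 9806 normalized counts with vehicle and 14129, 12614, 14795, 8607 and 11101 with GPI. The groups overlapped, and the log2 fold change was -0.23 (SE 0.12, adjusted p = 0.197), or -0.06 without M2 and -0.09 with the GC and length trend removed. Rmrp and Rpph1, RNAs of nuclear ribonucleases, had log2 fold changes of -0.18 (SE 0.12, adjusted p = 0.335) and -0.80 (SE 0.39, adjusted p = 0.164), Neat1, whose long form lacks a tail, 0.04 (SE 0.13, adjusted p = 0.859) and Malat1, which ends in a triple helix and rose, 0.32 (SE 0.08, adjusted p = 0.0075). Without M2, Rmrp was -0.08 and Rpph1 -0.44, and with the trend removed Rmrp was -0.03. Neat1 turned negative without M1 (-0.14) and with total counts only (-0.01), and was 0.19 without M2. Without the block Malat1 was not called (0.33). Their bearing on the histone counts was not tested.

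To find genes that vary with the histone sum beyond the treatment, log2 scaled counts were centred on the mean of each treatment and correlated with the log2 sum of the 63 genes over the 10 libraries. The gonads of an embryo share its genotype and stage, and each library's depth enters every value, so the 10 points are not independent and the r values are a description. The 10 genes outside the members with the highest Pearson r were Asb7 (0.96), Rfc4 (0.93), Ppip5k2 (0.92), Orc4 (0.92), Tspan5 (0.92), Ppwd1 (0.91), Lhpp (0.91), Slc44a3 (0.90), C330007P06Rik (0.90) and Wdr76 (0.90). All of the 13941 tested genes outside the members were searched, and among so many some high r values can arise by chance. Rfc4 and Orc4 encode factors of DNA replication. Orc4 was called higher with GPI, at 0.22 (SE 0.07, adjusted p = 0.0495), and kept its call only with limma-voom and with the GC and length trend removed, with 0.19 to 0.25 where an embryo was left out and 0.22 without the block. The other 9 were not called. Asb7 had 891, 839, 1045, 939 and 800.0 normalized counts with vehicle and 799, 996, 1013, 897 and 832 with GPI, highest in M3 in both treatments, as was the histone sum.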

How the data were processed

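Raw counts were used as the authors deposited them; they had aligned reads (STAR 2.5, mm10) and assigned pairs to RefSeq Curated genes, ignoring strand (featureCounts, Subread 1.5.0-p1). The library kit (Tecan Ovation) primes at poly(A) tails and at random and amplifies, so counts are not independent molecules. Genes were filtered by filterByExpr (minimum count 10, total 15), scaled by TMM and tested with edgeR 4.0.16 in R 4.3.3 (glmQLFit, glmQLFTest; embryo and treatment in the design; Benjamini-Hochberg over 13941 genes). SE is the log2 fold change over the root of F. Single embryos were read with a prior count of 2. Gonads were paired by the embryo in the labels; deviations from the treatment mean correlated by 0.06 on average within an embryo and -0.0147 between embryos. Lengths and GC contents came from GENCODE M21. The procedure was tested on simulated data. Alternatives were DESeq2 1.42.0, limma-voom (limma 3.58.1), no block, 2 other scalings, 2 other filters, each embryo left out and, chosen after seeing the data, a GC and length trend (loess, span 0.5) removed.

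Genes named are, of each histone type, the 3 tested members with most counts and the 3 with smallest p; of each list, the first 3 and the 3 with smallest p; of each cell type, the first 2 and the most abundant; and the 10 most like the histone sum. Others were named after their values were seen, and some marker genes are not reported here. Members and lists were chosen with earlier results of these data known.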

Additional observations from a re-analysis of the deposited data

Results flagged for a closer look

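Of 250 groups of 5 values examined (sums of types and lists, tested members, other named genes, and depths), 7 had a value standing far from the rest, where chance gives about 1 in 20. The number is thus below what chance gives. In H2bc4 the vehicle library of embryo M2 had 303.1 normalized counts, and the other vehicle libraries had at least 399.7. In H2az1 it had 4189.6, and the others had at least 6911.8. In Top2a the vehicle library of M5 had 9630.8, and the others had at least 11916.2. With GPI the highest value stood apart in H4c6 (22.4 in M1, the others at most 11.4), Rpph1 (34.7 in M1, the others at most 17.9), Malat1 (904041.9 in M1, the others at most 642468.5) and Dnmt1 (3574.4 in M2, the others at most 3099.1). The causes were not tested.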

How the results depend on the processing

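No histone gene was called higher under any alternative, and the median log2 fold change of the tested histone genes (-0.48 to -0.62) and the mean ratio of each histone type kept their direction under every alternative run for them. All genes called numbered 2311 without M4 and 2316 without M3 to 3472 with no low-count filter, against 3198, and those called higher 969 without M3 and 1024 without M4, against 1544. The count of histone genes called lower was 20 with DESeq2 and 21 with limma-voom, 20 without the replicate block, 24 with total counts only, and 13 to 18 with an embryo left out. Of all tested genes, 14.1% were lower with total counts only and 9.23% to 12.1% with an embryo left out. S-phase genes called lower numbered 1 with DESeq2, 1 with no replicate block and 3 with total counts only, and 0 to 3 with an embryo left out. S-phase genes called higher numbered 1 with no replicate block, 4 with the GC and length trend removed (chosen after seeing the data), and 0 to 1 with an embryo left out. Histone supply genes called ran from 2 to 5 with an embryo left out. Replacement histone genes called numbered 1 with DESeq2, with no replicate block, with DESeq2 size factors, with total counts only, with no low-count filter and with at least 10 counts in every library, and 0 to 2 with an embryo left out. Without the replicate block 3108 genes were called in all.

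The signs of Nasp, Asf1b, Amh, Asb7 and Neat1 turned under some alternatives. The median log2 fold change of the S-phase genes also turned, to 0.003 without M1. With an embryo left out, Nasp ran from -0.02 (without M2) to 0.10, Asf1b from -0.22 to 0.07 (without M1; 0.02 without M3), Amh from -0.12 (without M3; -0.07 without M4) to 0.29, and Asb7 from -0.05 (without M2; -0.005 without M5) to 0.03. Asb7 was -0.002 with DESeq2, DESeq2 size factors and at least 10 counts in every library and -0.04 with total counts only. Neat1 ran from -0.14 (without M1) to 0.19 with an embryo left out, and was -0.01 with total counts only. The report gives the histone genes that turned. The causes were not tested.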
